A study of Lepidium sativum with 107 samples.

Results

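The dry seed of garden cress (Lepidium sativum, cultivar FR14) was compared between its 2 ends. The radicle end held the radicle with the micropylar endosperm that caps it (4 arrays), and the cotyledon end held part of the cotyledons with the endosperm around them (3 arrays, replicates 1, 3 and 4). Whole dry seeds (4 arrays) served as the reference. These 11 arrays belong to a series of 27 groups that follows germination of the same cultivar, in which seeds imbibed at 24 °C in continuous light were cut into the micropylar endosperm, the remaining endosperm, the radicle with the lower hypocotyl, and the cotyledons. The dry samples carry no imbibition, no treatment and no genotype difference, and all 13895 probe sets of the deposited table entered every comparison. Each dry end mixes embryo and endosperm tissue, so a value describes the mixture, and in such bulk samples fewer cells of a type and less RNA per cell cannot be told apart.

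A dry seed contains RNA stored during maturation on the mother plant, and imbibed cells later read, replace or degrade that store. In Arabidopsis, a relative in the same family, the embryo axis carries the root pole from which germination growth starts, while the cotyledons become the first photosynthetic leaves and hold most of the oil and storage protein. The endosperm is a thin living layer around the embryo, and its micropylar part covers the radicle tip and must give way before the radicle can emerge. The probe sets are filed under Arabidopsis locus codes, and all gene symbols and roles below are those of the Arabidopsis gene with that code. A value therefore describes whichever cress transcript bound those probes, and close relatives within a gene family may share signal.

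Values are log2 expression levels, and a difference is the radicle end minus the cotyledon end with its standard error from limma (a moderated linear model over all arrays). A locus passed at a Benjamini-Hochberg adjusted p under 0.05 over all probe sets. Between the dry ends 1340 of 13895 loci passed, which is 9.64% of those tested. Of these, 563 (4.05%) were higher in the radicle end and 777 (5.59%) were higher in the cotyledon end. The median difference among them was 0.71 for the first set and -0.73 for the second, so most differences were below 2-fold, and 111 and 190 loci respectively differed by more than 2-fold. The replicate arrays did not overlap between the ends for 442 of the 563 and 592 of the 777, while over all loci 8.35% had every radicle-end array above every cotyledon-end array and 8.26% had the reverse. The 25th percentile of brightness, over the means of every group in the series, lay at 3.59. A group mean below it was taken as too dim to measure, and a difference to such a mean is given as "at least". This applied to 89 of the 563 and to 137 of the 777.

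The spread came from all arrays of the series, and with a spread estimated from the 11 dry arrays alone 657 loci passed, of which 595 were among the 1340. The labels do not say whether replicates came from separate seed batches, so a p-value covers the spread of these arrays, and that spread may be technical. Arrays of 1 group correlated at 0.958 to 0.966 in the radicle end, 0.955 to 0.961 in the cotyledon end and 0.946 to 0.961 in whole seeds, while radicle-end and cotyledon-end arrays correlated with each other at 0.926 to 0.943. On the first principal component of the 11 arrays, which held 26.2% of the variance, the radicle end lay between 16.9 and 27.2, whole seeds between -10.8 and -8.1, and the cotyledon end between -20.5 and -15.3. The second component held 11.5% and separated whole-seed replicate 4 (-29.99) from whole-seed replicate 2 (16.79).

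**Figure D1:**
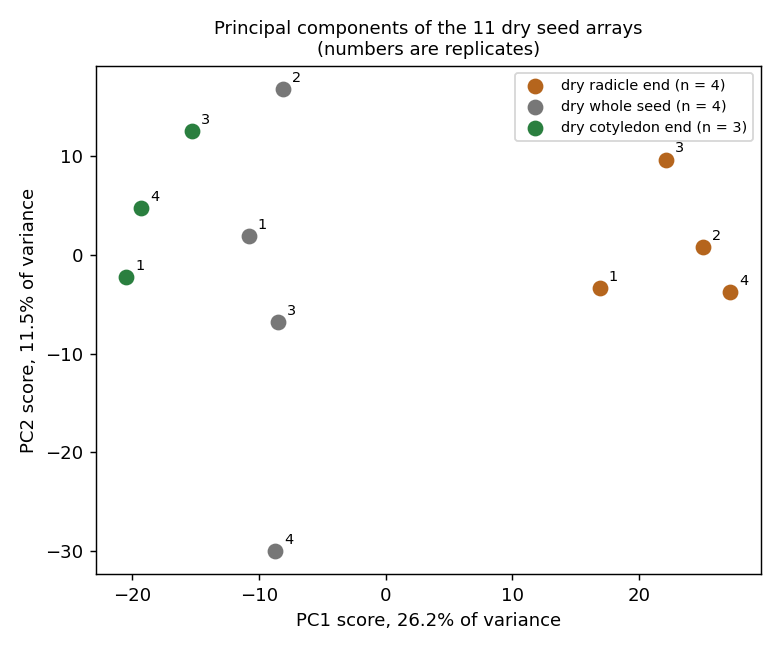
Scores of the 11 dry seed arrays on the first (x) and second (y) principal component of all loci, with the replicate number beside each point. The 4 radicle-end arrays lie at 16.9 or above on the first component, and whole seeds lie nearer to the cotyledon end than to the radicle end.

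Of 23 measured shoot apex and cotyledon markers 3 were higher in the cotyledon end, 2 were higher in the radicle end and 18 did not pass. The shares were 13% and 8.7%, against 5.59% and 4.05% of all loci. FIL (AT2G45190), a YABBY transcription factor that specifies the lower side of leaves and cotyledons, stood at 3.78, 3.68, 3.80 and 3.53 in the radicle-end arrays and at 5.26, 6.15 and 5.86 in the cotyledon-end arrays. Whole seeds lay between, at 4.36 to 5.92, and no radicle-end array reached the lowest array of either other group. The difference was -2.06 ± 0.23, or 4.17-fold higher in the cotyledon end (adjusted p = 2.355e-11). BLH2 (AT4G36870), a BELL homeodomain protein that restrains growth at leaf margins, was at 3.10 to 3.52 in the radicle end and 4.02 to 5.30 in the cotyledon end, at least 2.703-fold higher in the latter (adjusted p = 9.006e-06). YAB3 (AT4G00180), a YABBY factor that overlaps in function with FIL, was at least 1.57-fold higher in the cotyledon end, but the arrays overlapped and the locus did not pass on the 11 dry arrays alone. The 2 higher in the radicle end were ARF4 (at least 0.66), an auxin response factor of leaf polarity, and KNAT6 (at least 0.40), a meristem homeobox gene. That count became 1 without radicle-end replicate 2 or without any single cotyledon-end array, and 0 on the 11 dry arrays alone. The summed linear level of the 23 was 440 to 494 in the radicle end, 512 to 548 in the cotyledon end and 424 to 571 in whole seeds. The median difference of the list was -0.07, against -0.00209 over all loci. After 3 h of imbibition 3 of the 23 were higher in the cotyledons and 3 in the radicle, against 7.22% and 5.66% of all loci.

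None of 19 measured root and radicle tip markers passed in limma in either direction, against 9.64% of all loci. So few loci cannot show a share lower than that of all loci. Of the 19, 2 had an unadjusted limma p under 0.05 and 7 had both ends under 3.59. Their differences ran from -0.28 to 0.49 with a median of 0.07. Their summed linear level was 254 to 287 in the radicle end, 242 to 263 in the cotyledon end and 267 to 294 in whole seeds, and 9 of the 19 had a radicle-end mean under 3.59. PLT2 (AT1G51190), a master regulator of the root stem cell niche, was at 3.62 to 4.06 in the radicle end and 3.68 to 4.01 in the cotyledon end. PIN2 (AT5G57090), a root-tip auxin exporter, was at 3.18 to 3.90 and 3.52 to 3.70. Both ranges of the cotyledon end lay within those of the radicle end. After imbibition 4 of the 19 were higher in the radicle than in the cotyledons at 3 h and none lower. Over all loci 5.66% were higher and 7.22% lower. Whether the dry and the 3 h counts differ was not tested. At 3 h PIN2 stood at 4.28 ± 0.46 (SD, n = 4) in the radicle and 3.19 ± 0.30 in the cotyledons. The difference was at least 1.09 ± 0.28 (standard error, limma adjusted p = 0.003949).

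The markers of the covering layers passed at rates of 14.3% (endosperm) and 8.33% (seed coat), against 9.64% of all loci. Of 7 measured endosperm markers 1 passed, SUC5 (AT1G71890), a sucrose transporter of the endosperm, which was at 3.77 to 4.83 in the radicle end and 3.04 to 3.72 in the cotyledon end, a difference of at least 0.95 ± 0.19. SUC5 did not pass on the 11 dry arrays alone. EPR1 (AT2G27380), an extensin-like wall protein of the micropylar endosperm, was at 6.68, 6.63, 6.64 and 7.10 in the radicle end and at 6.84, 6.02 and 6.22 in the cotyledon end, with overlapping ranges and a difference of 0.40 ± 0.24 (adjusted p = 0.3507). In isolated tissues after 1 h of imbibition the same locus stood at 9.42 ± 0.06 (SD, n = 4) in the micropylar endosperm and 4.57 ± 0.28 in the radicle (adjusted p = 2.021e-32). At 3 h EPR1 was bright in both endosperm parts, at 7.26 ± 0.33 in the micropylar and 8.08 ± 0.42 in the remaining endosperm. It was higher in the remaining part (limma adjusted p = 0.01258), so in this series EPR1 did not mark the micropylar part alone. The summed endosperm markers were at 189 to 234 in the radicle end, 143 to 209 in the cotyledon end and 156 to 197 in whole seeds, and 1 of the 7 lay under 3.59 in each group. Of 12 seed coat and flavonoid markers 1 passed, TT3 (AT5G42800), dihydroflavonol reductase of pigment synthesis, at 4.15 to 4.74 in the radicle end and 5.25 to 5.78 in the cotyledon end (-1.17 ± 0.21). The summed seed coat markers were at 227 to 271, 256 to 308 and 256 to 340 in the radicle end, the cotyledon end and whole seeds. The part these tissues played in the other differences was not tested.

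Regulators of organ growth held the largest differences towards the radicle end among the listed genes. ARF6 (AT1G30330), an auxin response factor that activates growth genes, was at 6.85, 6.50, 6.72 and 6.58 in the radicle end, at 4.18, 5.15, 5.41 and 5.52 in whole seeds and at 4.41, 4.26 and 4.01 in the cotyledon end. The radicle-end arrays stood above all others, by 2.44 ± 0.36 over the cotyledon end, or 5.42-fold (adjusted p = 2.182e-07). ARF6 was the single locus to pass among 33 measured genes of auxin transport and response, whose median difference was 0.05. That is 3.03% of the list, against 9.64% of all loci.

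GRF1 (AT2G22840) and GRF2 (AT4G37740) encode growth-regulating factors, transcription factors that promote cell proliferation in young organs. GRF1 was at 5.28, 5.98, 6.24 and 6.16 in the radicle end and at 4.06, 3.81 and 3.66 in the cotyledon end, a difference of 2.07 ± 0.31 (adjusted p = 2.426e-07). GRF2 was at 5.69, 7.26, 6.72 and 6.14 against 5.08, 5.14 and 4.22, a difference of 1.64 ± 0.29 (adjusted p = 1.442e-05). For both genes every radicle-end array lay above every cotyledon-end array. Their coactivator GIF1 (AT5G28640), which joins GRF proteins on their targets, lay the other way, at 6.49, 6.14, 6.44 and 6.07 in the radicle end and at 7.73, 7.91 and 7.92 in the cotyledon end (-1.57 ± 0.38, adjusted p = 0.002498). TCP2 (AT4G18390), which limits proliferation in leaf blades, was at 3.10 to 3.32 in the radicle end and 3.93 to 5.02 in the cotyledon end, at least 2.16-fold higher in the latter. In all, 2 of the 17 measured loci of this group were higher in the radicle end. The 4 higher in the cotyledon end were GIF1, TCP2, TCP17 and CYP78A6. These shares of 11.8% and 23.5% stand against 4.05% and 5.59% of all loci. Without radicle-end replicate 2 the count of 4 became 2. CYCD2;1 (AT2G22490), a D-type cyclin of the entry into the cell cycle, was at 3.97 to 4.65 in the radicle end and 2.92 to 3.58 in the cotyledon end, at least 0.98 ± 0.23 higher in the former. It was the single locus to pass among 16 cell cycle and replication genes (6.25%, against 9.64% of all loci).

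**Figure D2:**
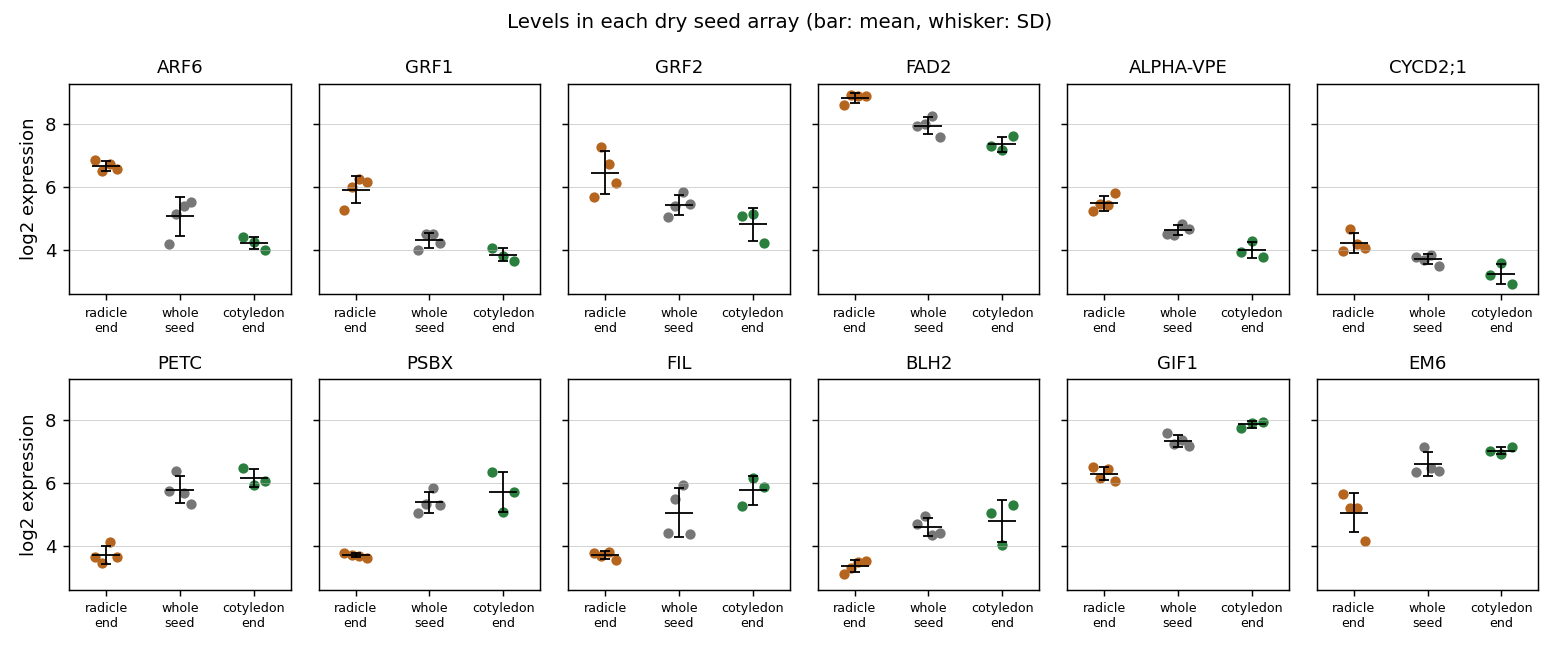
Log2 expression of 12 loci in each dry seed array, from left to right the radicle end (4 arrays), whole seeds (4) and the cotyledon end (3), with the mean as a bar and the SD as a whisker. The upper row holds loci higher in the radicle end, such as ARF6 at 6.50 to 6.85 against 4.01 to 4.41, and the lower row holds loci higher in the cotyledon end, such as PETC at 3.46 to 4.11 against 5.92 to 6.48.

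Stored transcripts of photosynthesis were higher in the cotyledon end. Of 33 measured nuclear photosynthesis genes 10 (30.3%) were higher there and none in the radicle end, against 5.59% and 4.05% of all loci. The median difference was -0.22, and 27 of the 33 differences lay below 0. PETC (AT4G03280), the Rieske protein of the cytochrome b6f complex, was at 3.65, 3.46, 4.11 and 3.64 in the radicle end, at 5.73, 6.36, 5.66 and 5.33 in whole seeds and at 6.48, 5.92 and 6.05 in the cotyledon end. No radicle-end array came near the other 2 groups, and the difference was -2.44 ± 0.18, or 5.42-fold (adjusted p = 1.934e-19). PSBX (AT2G06520), PSBW (AT2G30570) and PSBR (AT1G79040) encode small subunits of photosystem II. PSBX was at 3.77, 3.71, 3.67 and 3.62 in the radicle end and at 6.33, 5.08 and 5.70 in the cotyledon end (-2.01 ± 0.24). PSBW differed by -1.80 ± 0.24 and PSBR by -1.27 ± 0.21, and the arrays of the ends did not overlap for any of these 3. The other loci that passed were RCA (Rubisco activase), PSBS (photoprotection), PSAL (photosystem I), ATPC1 (ATP synthase), LHCB5 (light harvesting) and FNR1 (electron transfer to NADP), with differences of -1.09 to -0.39. The members that did not pass included 6 with both ends under 3.59.

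Transcripts of proteins made late in maturation passed in both directions. Of 21 measured late embryogenesis and dehydration proteins 5 were higher in the cotyledon end and 2 in the radicle end. The shares were 23.8% and 9.52%, against 5.59% and 4.05% of all loci, and the median difference was -0.06. EM6 (AT2G40170), a hydrophilic protein that protects the drying embryo, was at 5.63, 5.20, 5.21 and 4.16 in the radicle end and at 6.99, 6.91 and 7.13 in the cotyledon end, without overlap (-1.96 ± 0.29, adjusted p = 1.608e-07). EM1 (AT3G51810), of the same protein family, was among the brightest transcripts and did not pass, at 9.74 to 9.99 in the radicle end and 9.29 to 9.56 in the cotyledon end (0.48 ± 0.36, adjusted p = 0.4796). RAB18 (AT5G66400), a dehydrin, was at 10.66 to 10.77 against 11.36 to 11.48 (-0.72 ± 0.24, adjusted p = 0.03892), but in each of the 7 fits that left out 1 array of the ends it did not pass (-0.69 to -0.74). The count of 5 became 2 on the 11 dry arrays alone and without cotyledon-end replicate 3, and 3 without radicle-end replicates 1 or 2 or cotyledon-end replicate 1. The count of 2 became 0 without radicle-end replicates 1 or 2 or cotyledon-end replicate 4, and 1 without any other array of the ends.

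Heat shock proteins are chaperones that many seeds store. Among 21 measured loci 5 were higher in the cotyledon end and 1 in the radicle end, with a median of -0.42. These were 23.8% and 4.76%, against 5.59% and 4.05% of all loci. The strongest was HSP26.5 (AT1G52560), a small heat shock protein, at 5.16, 3.70, 3.87 and 3.87 in the radicle end and at 5.11, 6.34 and 6.00 in the cotyledon end (-1.66 ± 0.24). Radicle-end replicate 1 overlapped cotyledon-end replicate 1, and the other arrays did not overlap. HSP17.4 (AT3G46230), a cytosolic small heat shock protein, differed by -0.91 ± 0.25 and did not pass without cotyledon-end replicate 3 (-0.77). The count of 5 became 1 there, and 3 without radicle-end replicates 3 or 4 or cotyledon-end replicates 1 or 4. HSC70-1 (AT5G02500), a constitutive chaperone that is also present in unstressed cells, was the member higher in the radicle end, at 7.89 to 8.33 against 7.02 to 7.28 (1.01 ± 0.17, adjusted p = 3.677e-06).

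Genes of protective metabolism passed mostly towards the cotyledon end. GOLS1 (AT2G47180), galactinol synthase of the raffinose pathway, was at 6.63, 6.57, 6.77 and 6.86 in the radicle end and at 7.96, 8.21 and 8.32 in the cotyledon end (-1.46 ± 0.29, adjusted p = 0.0001626). CAT2 (AT4G35090), a peroxisomal catalase, differed by -0.90 ± 0.14, and CSD2 (AT2G28190), the plastid copper-zinc superoxide dismutase, by -0.89 ± 0.19, both without overlap. These were 3 of 20 measured genes of raffinose, sucrose and antioxidant metabolism (15%, against 5.59% of all loci). In the opposite direction 1 other passed (5%, against 4.05% of all loci). It was GR1, a glutathione reductase (0.39), which passed in none of the 7 fits without 1 array (0.34 to 0.44).

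Storage protein and oil body genes lay in both directions. Of 13 measured, 3 were higher in the cotyledon end (PAP85, OLEO4 and AT1G03890) and 1 in the radicle end (SESA5). The shares were 23.1% and 7.69%, against 5.59% and 4.05% of all loci. PAP85 (AT3G22640), a vicilin-like storage protein, was at 5.04 to 5.66 in the radicle end and 5.87 to 6.31 in the cotyledon end (-0.83 ± 0.15). OLEO4 (AT3G27660), an oleosin of the oil body surface, was at 6.36 to 6.84 against 7.16 to 7.61 (-0.76 ± 0.23), but did not pass without radicle-end replicate 2 (-0.67) or cotyledon-end replicates 3 (-0.66) or 4 (-0.74). AT1G03890, a seed storage cupin related to the cruciferins, was at least 1.31-fold higher in the cotyledon end. It rested on cotyledon-end replicate 1 at 4.57, with the other arrays of that end at 3.58 and 3.53 and the radicle-end arrays at 3.34 to 3.73, and the difference became -0.05 without it. It also did not pass without radicle-end replicates 1 (-0.35) or 4 (-0.33). SESA5 (AT5G54740), a 2S albumin, was at 4.21 to 5.89 in the radicle end and 3.43 to 3.99 in the cotyledon end (1.57 ± 0.38). Whole seeds ranged more widely than either end for SESA5, from 4.03 to 7.86, and it did not pass on the 11 dry arrays alone. The abundant cruciferin CRA1 (AT5G44120) was at 8.31 to 8.56 against 7.47 to 8.55 (0.41 ± 0.26), and OLEO1 (AT4G25140), the major oleosin, at 5.78 to 6.48 against 6.16 to 6.91 (-0.41 ± 0.23). Neither passed, and their ranges overlapped.

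Genes of oil metabolism passed in both directions, and a division by step was not tested. FAD2 (AT3G12120), the oleate desaturase of oil synthesis, was at 8.60, 8.94, 8.88 and 8.89 in the radicle end and at 7.30, 7.16 and 7.63 in the cotyledon end (1.46 ± 0.22, 2.76-fold, adjusted p = 2.293e-07). FAD3 (AT2G29980), the next desaturase, was higher in the radicle end by at least 0.74 ± 0.21, and FATB (0.59), a fatty acid thioesterase, and PDAT1 (0.40), which completes triacylglycerol, also passed. The members higher in the cotyledon end belong to oil breakdown, ICL (AT3G21720), isocitrate lyase of the glyoxylate cycle, at -0.76 ± 0.22, and PED1 (AT2G33150), the thiolase of fatty acid oxidation, at -0.60 ± 0.18. The list thus had 4 of 19 higher in the radicle end and 2 higher in the cotyledon end. These were 21.1% and 10.5%, against 4.05% and 5.59% of all loci. FAD3 did not pass without radicle-end replicate 4 (0.67) or cotyledon-end replicate 4 (0.68), and the count of 4 became 2 there and on the 11 dry arrays alone. ICL did not pass without cotyledon-end replicates 3 (-0.63) or 4 (-0.73), nor PED1 without radicle-end replicate 2 (-0.54) or cotyledon-end replicates 3 (-0.59) or 4 (-0.52).

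Of 6 measured vacuolar processing enzymes and cysteine proteases, 2 were higher in the radicle end and 1 in the cotyledon end. With so few loci these were 33.3% and 16.7%, against 4.05% and 5.59% of all loci. The processing enzymes cleave storage protein precursors and act in vacuolar cell death. ALPHA-VPE (AT2G25940) was at 5.24, 5.45, 5.43 and 5.81 in the radicle end and at 3.94, 4.28 and 3.78 in the cotyledon end (1.48 ± 0.25, adjusted p = 4.55e-06). GAMMA-VPE (AT4G32940) was at 5.87, 5.39, 5.25 and 6.01 against 6.92, 6.99 and 6.93 (-1.32 ± 0.18, adjusted p = 1.22e-08). In both cases the arrays of the ends did not overlap, and whole seeds lay between, at 4.49 to 4.83 for ALPHA-VPE and 6.04 to 6.74 for GAMMA-VPE. RD19A (AT4G39090), a drought-induced cysteine protease, was at 4.84, 4.99, 4.96 and 5.36 in the radicle end and at 4.67, 4.35 and 4.06 in the cotyledon end (0.67 ± 0.22, adjusted p = 0.03032). It did not pass without radicle-end replicate 4 (0.57) or cotyledon-end replicates 3 (0.67) or 4 (0.52), nor on the 11 dry arrays alone. The count towards the cotyledon end became 2 without replicate 1 of either end.

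**Figure D3:**
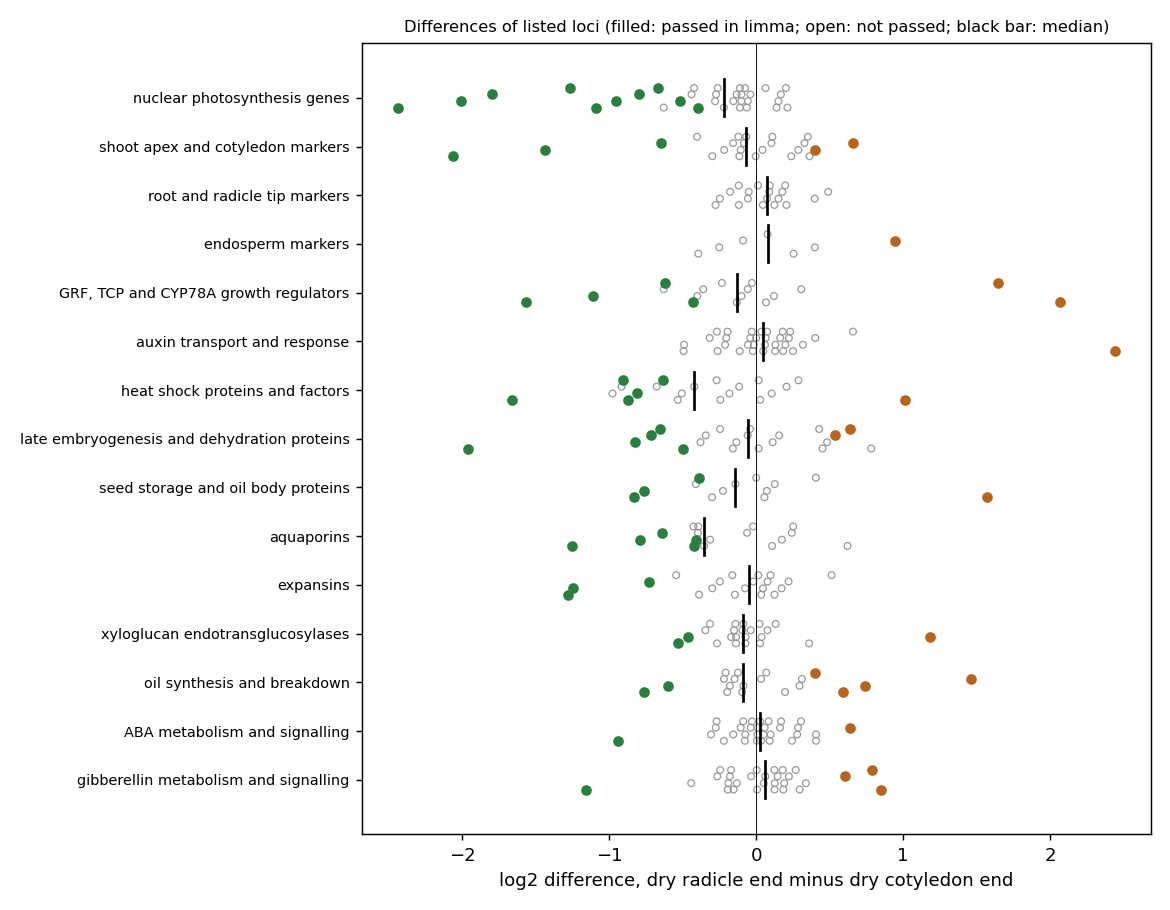
Difference in log2 level between the dry radicle end and the dry cotyledon end (x) for every measured locus of 15 gene lists (y), with loci that passed in limma filled, the others open, and the list median as a black bar. Photosynthesis genes that passed lie to the left of 0 alone, root markers hold no filled point, and ARF6, GRF1 and GRF2 lie farthest to the right at 2.44, 2.07 and 1.64.

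Genes of the cell wall and of water uptake differed by family member. Of 20 measured expansins, proteins that loosen the wall for expansion, 3 were higher in the cotyledon end and none in the radicle end. The 3 were 15% of the list, against 5.59% of all loci, while 4.05% of all loci were higher in the radicle end. EXPA15 (AT2G03090) was at 4.61 to 5.23 in the radicle end and 6.11 to 6.30 in the cotyledon end (-1.28 ± 0.17), and EXPA1 (AT1G69530) at 3.99 to 5.19 against 5.73 to 6.26 (-1.25 ± 0.24). EXPA16 (AT3G55500) overlapped, at 4.95 to 5.69 against 5.56 to 6.34 (-0.73 ± 0.25, adjusted p = 0.04335). It did not pass in 5 of the 7 fits without 1 array (-0.54 to -0.73). The count of 3 became 2 without radicle-end replicates 1, 2 or 3 or cotyledon-end replicate 3, and on the 11 dry arrays alone. XTH5 (AT5G13870), a xyloglucan-remodelling enzyme, was at 4.05, 4.75, 4.09 and 4.17 in the radicle end and at 3.07, 3.09 and 3.09 in the cotyledon end, at least 1.18 ± 0.27 higher in the former (adjusted p = 0.0009498). CESA1 (AT4G32410), a catalytic subunit of cellulose synthase in primary walls, was at 5.79 to 5.84 against 4.82 to 5.02 (0.87 ± 0.22). XXT2 (AT4G02500), which adds xylose to xyloglucan, was higher in the radicle end by at least 0.91 ± 0.23, but did not pass without cotyledon-end replicate 1 (0.72). Xyloglucan endotransglucosylases passed at 4.55% towards the radicle end and 9.09% towards the cotyledon end, against 4.05% and 5.59% of all loci. Of 22 measured XTH5 was higher in the radicle end, and XTH25 (AT5G57550, -0.54 ± 0.17) and XTH32 (AT2G36870, -0.47 ± 0.15) were higher in the cotyledon end. Each of the latter did not pass in 5 of the 7 fits without 1 array (-0.45 to -0.54 for XTH25 and -0.40 to -0.51 for XTH32) or on the 11 dry arrays alone. Without radicle-end replicate 3 or cotyledon-end replicates 1 or 3 neither passed, and without each of the other arrays 1 of them did. CESA1 and XXT2 were the 2 that passed among 27 pectin methylesterase, mannanase and cellulose synthesis genes (7.41%, against 9.64% of all loci).

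Aquaporins are the water channels of the plasma membrane and the vacuole. Of 17 measured loci 5 (29.4%) were higher in the cotyledon end and none in the radicle end, against 5.59% and 4.05% of all loci. The median difference was -0.36. PIP1;1 (AT3G61430) was at 4.34, 4.77, 4.25 and 4.58 in the radicle end and at 5.41, 6.22 and 5.59 in the cotyledon end (-1.25 ± 0.28, adjusted p = 0.0007103). PIP1;4 (AT4G00430) was at 6.34 to 7.05 against 7.43 to 7.49 (-0.79 ± 0.17). These plasma membrane channels did not overlap between the ends and passed under each of the 16 alternative settings. The seed-specific vacuolar channel TIP3;2 (AT1G17810) differed by -0.64 ± 0.22 and did not pass in 5 of the 7 fits without 1 array (-0.59 to -0.62). The count of 5 became 2 without cotyledon-end replicate 4, and 3 without radicle-end replicates 2 or 4, after quantile normalization and on the 11 dry arrays alone, where 1 aquaporin was higher in the radicle end.

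Genes of abscisic acid and gibberellin passed in both directions, at 6.45% and 13.8% of their lists, against 9.64% of all loci. Of 31 measured genes of abscisic acid, the hormone that keeps seeds dormant, 1 was higher in each end. AHG3 (AT3G11410), a phosphatase that represses abscisic acid signalling, was at 8.24, 8.35, 8.24 and 8.43 in the radicle end and at 7.74, 7.73 and 7.57 in the cotyledon end (0.63 ± 0.16). CYP707A2 (AT2G29090), the main enzyme that degrades the hormone at imbibition, was at 5.02, 5.09, 5.17 and 5.25 in the radicle end and at 6.02, 6.15 and 6.05 in the cotyledon end (-0.94 ± 0.28, adjusted p = 0.02066). The arrays did not overlap, but the locus did not pass without cotyledon-end replicates 1 (-0.96), 3 (-0.90) or 4 (-0.95), where the size barely moved. EEL (AT2G41070), a transcription factor of the maturation programme, was at 5.02 to 5.45 against 5.98 to 6.77 (-1.03 ± 0.22, adjusted p = 0.0003032). VAL2 (AT4G32010), a B3-domain repressor of that programme, was at 4.98, 4.62, 4.47 and 4.85 in the radicle end and at 4.05, 4.21 and 4.30 in the cotyledon end (0.54 ± 0.11, adjusted p = 0.0002394), without overlap. EEL and VAL2 were the 2 of 14 measured seed maturation transcription factors that passed, 1 in each direction. The count became 2 towards the radicle end without radicle-end replicate 4 or cotyledon-end replicate 1, 2 towards the cotyledon end without replicate 1 of either end, and 0 towards the radicle end on the 11 dry arrays alone. ABI3 (AT3G24650), a master regulator of maturation, at 3.97 to 4.38 against 3.88 to 4.47, and ABI5 (AT2G36270), a dormancy and stress bZIP factor, at 5.46 to 5.99 against 5.73 to 6.32, did not pass. The synthesis gene NCED9 (AT1G78390) had both ends under 3.59.

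For gibberellin, the hormone that promotes germination, 3 of 29 measured loci were higher in the radicle end and 1 in the cotyledon end. These were 10.3% and 3.45%, against 4.05% and 5.59% of all loci. RGL2 (AT3G03450), the DELLA repressor of germination, was at 5.42, 6.17, 5.77 and 5.75 in the radicle end and at 4.76, 5.30 and 4.73 in the cotyledon end, without overlap (0.85 ± 0.22, adjusted p = 0.004698). The synthesis enzymes KO (AT5G25900, 0.79 ± 0.24) and KAO1 (AT1G05160, 0.61 ± 0.18) were the other loci higher there. KO did not pass without radicle-end replicate 3 (0.55) or cotyledon-end replicate 3 (0.45), and KAO1 not without replicate 4 of either end (0.33 and 0.56). GASA2 (AT4G09610), a gibberellin-regulated peptide, differed by -1.16 ± 0.36 and did not pass without radicle-end replicate 4 (-0.83) or cotyledon-end replicates 1 (-0.97) or 4 (-1.03). On the 11 dry arrays alone none of these 4 passed. GASA6 (AT1G74670), of the same peptide family, had both ends under 3.59.

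Single loci of defence, transport and light response also passed. CYP79B2 (AT4G39950), which starts the synthesis of indole glucosinolates, was at 4.92 to 5.23 in the radicle end and at 4.37, 4.37 and 4.38 in the cotyledon end (0.75 ± 0.21). SOT16 (AT1G74100), which completes glucosinolates by sulfation, was at 6.15, 6.22, 6.00 and 5.14 against 6.48 to 6.72 (-0.74 ± 0.20), and without radicle-end replicate 4 it did not pass (-0.49). Neither gene overlapped between the ends. NRT2.7 (AT5G14570), a nitrate transporter of the seed vacuole, was at 4.06 to 4.65 against 4.83 to 5.18 (-0.63 ± 0.17) and did not pass without cotyledon-end replicate 1 (-0.53). PHOT1 (AT3G45780), a blue light receptor, differed by -0.58, which became -0.15 without cotyledon-end replicate 3. CML38 (AT1G76650), a wound-induced calcium sensor, differed by 1.08, which became 0.66 without cotyledon-end replicate 1. PHOT1 and CML38 overlapped between the ends and did not pass without the array named. PDF1.1 (AT1G75830), a plant defensin, was at 3.94, 3.92, 3.48 and 3.59 in the radicle end and at 4.97, 4.14 and 4.53 in the cotyledon end (-0.82 ± 0.27), and did not pass in 4 of the 7 fits without 1 array (-0.61 to -0.83). SWEET12 (AT5G23660), a sugar exporter, was at 3.39 to 3.68 against 3.85 to 4.60, at least 1.61-fold higher in the cotyledon end, and did not pass without cotyledon-end replicate 4 (-0.50). The arrays of the ends did not overlap for either. None of these 7 loci passed on the 11 dry arrays alone.

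Over all 33 lists, 596 of 840 loci were measured and 84 (14.1%) passed, against 9.64% of all loci. Of the 84, 55 were higher in the cotyledon end, against 777 of the 1340 over all loci. The lists were chosen with earlier results known, so these shares are a description. In limma no member passed for genes of stomata, cytokinin, ethylene, the circadian clock, the cuticle, suberin or the listed mitochondrial genes, and 2, 2, 1, 0, 3, 1 and 2 members in that order had an unadjusted p under 0.05. All 14 measured members of the mitochondrial list had a difference above 0 (0.08 to 0.90, median 0.43), though none passed. Every radicle-end array lay above every cotyledon-end array for 5 of them, against 8.35% of all loci. Over all 47 measured loci of the mitochondrial genome, 33 lay above 0 and 14 below, with a median of 0.14. Of these 1 passed, ATMG00590, towards the cotyledon end. The median level of the 47 was lowest in cotyledon-end replicate 4, at 3.87 against 4.05 to 4.30 in the other dry arrays. After 3 h of imbibition the list's median difference, radicle minus cotyledons, was -0.73. There 6 of the 14 and 17 of the 47 were higher in the cotyledons, against 7.22% of all loci, and none in the radicle. Among loci outside the lists, AT4G39050 was the largest towards the radicle end, at 6.19, 6.48, 6.40 and 6.53 against 4.56, 4.04 and 3.85 (2.25 ± 0.26). The largest towards the cotyledon end was AT5G55760, at 4.15, 4.37, 4.30 and 4.24 against 7.00, 7.34 and 7.03 (-2.86 ± 0.19, adjusted p = 4.07e-21), which is the largest difference of the whole comparison. Whole seeds lay between the ends for both, at 4.73 to 5.74 and 6.19 to 7.03.

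Whole dry seeds stood closer to the cotyledon end. The radicle end differed from whole seeds at 895 loci (6.44%), 326 higher (2.35%) and 569 lower (4.09%) than in whole seeds. The cotyledon end differed from whole seeds at 121 loci (0.871%), 59 higher (0.425%) and 62 lower (0.446%), with 3 arrays in place of 4. Both comparisons use the same 4 whole-seed arrays, so they are set side by side only. On the 11 dry arrays alone the counts were 383 and 1. PETC was 2.06 lower in the radicle end than in whole seeds (adjusted p = 2.966e-17) and 0.38 higher in the cotyledon end than in whole seeds (adjusted p = 0.3652). ARF6 was 1.60 higher in the radicle end than in whole seeds (adjusted p = 0.0004269), with the cotyledon end at -0.84 to whole seeds (adjusted p = 0.2921).

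For 1153 of the 1340 loci that differed between the ends (86.0%) the whole-seed mean lay between the means of the ends. Placed on a scale from 0 (radicle end) to 1 (cotyledon end), its median was 0.636 on the log2 scale and 0.640 on the linear scale. The share lying between was 90.4% (509 of 563) for loci higher in the radicle end and 82.9% (644 of 777) for loci higher in the cotyledon end. Of the remainder, 145 had whole seeds beyond the cotyledon end and 42 beyond the radicle end. The 1340 loci were selected for a difference between the ends, so the mean of any other group tends to fall between them. No share for unselected loci was computed, so the shares lying between are a description and cannot show where whole seeds lie. M10 (AT2G41280), a late embryogenesis protein, was at 5.93 to 6.54 in the radicle end, 6.60 to 7.14 in the cotyledon end and 6.96 to 7.36 in whole seeds, and the mean of SESA5 was also highest in whole seeds. Both loci passed between the ends on all arrays and not on the 11 dry arrays alone.

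The embryo parts were available apart after imbibition, on arrays that the dry comparison does not use. At 3 h, 1790 loci (12.9%) differed between radicle and cotyledons, 787 higher in the radicle (5.66%) and 1003 higher in the cotyledons (7.22%). Of the 563 loci higher in the dry radicle end, 185 (32.9%) were higher in the 3 h radicle and 2 in the 3 h cotyledons, and 475 (84.4%) had a difference above 0, against 53.3% of all loci. Of the 777 loci higher in the dry cotyledon end, 351 (45.2%) were higher in the 3 h cotyledons and 3 in the 3 h radicle. The shared loci were 23.5% of the 787 and 35.0% of the 1003. Across all 13895 loci, which are not independent replicates, the dry difference and the 3 h difference had a Pearson r of 0.520 and a Spearman rho of 0.355.

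**Figure D4:**
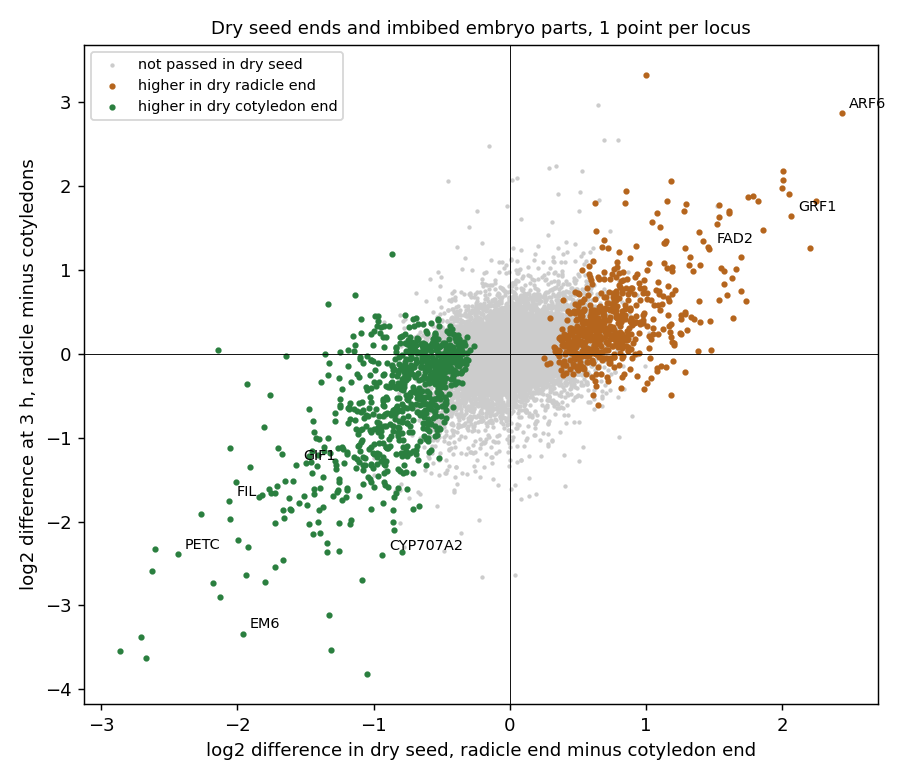
Each point is 1 of 13895 loci, with the log2 difference between the dry radicle end and the dry cotyledon end (x) against the difference between radicle and cotyledons after 3 h of imbibition (y). Of the loci higher in the dry radicle end (brown) 84.4% lie above 0 on the y axis, and ARF6, PETC, FIL and EM6 lie far from 0 on both axes.

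FIL, PETC, EM6, ARF6 and FAD2 differed in the same direction between the embryo parts after 3 h. FIL was at 5.10 ± 0.77 (SD, n = 4) in the cotyledons and 3.34 ± 0.09 in the radicle, and at 3.49 ± 0.13 in the micropylar and 3.51 ± 0.20 in the remaining endosperm. PETC was at 5.74 ± 0.61 in the cotyledons and 3.34 to 3.45 in the means of the other 3 tissues. For both, the cotyledons were the single tissue with a mean above 3.59, and the adjusted p of radicle against cotyledons was 1.311e-10 for FIL and 3.020e-21 for PETC. EM6 was at 7.54 ± 0.88 in the cotyledons, and the radicle differed from that by -3.34 (adjusted p = 2.294e-18). ARF6 was at 7.46 ± 0.58 in the radicle and 4.59 ± 0.71 in the cotyledons (adjusted p = 5.237e-11), and FAD2 at 8.98 ± 0.12 and 7.73 ± 0.08 (adjusted p = 8.641e-07).

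Other loci that differed between the dry ends did not pass at 3 h. GRF2 was at 7.39 ± 0.57 (SD, n = 4) in the radicle and 6.97 ± 0.40 in the cotyledons (difference 0.42 ± 0.27, standard error, adjusted p = 0.3462), ALPHA-VPE at 4.03 ± 0.11 and 3.98 ± 0.47 (adjusted p = 0.9414), and TT3 at 4.37 ± 0.36 and 4.72 ± 0.41 (adjusted p = 0.2833). CYP707A2 was at 4.78 ± 0.42 in the radicle, 7.18 ± 0.64 in the cotyledons, 6.99 ± 0.18 in the micropylar endosperm and 7.00 ± 0.13 in the remaining endosperm, so the radicle was the one tissue with a low level (radicle against cotyledons -2.40 ± 0.26, adjusted p = 7.423e-12). Conversely, CRA1 (-1.58, adjusted p = 2.023e-07) and OLEO1 (-1.62, adjusted p = 6.101e-09) were lower in the 3 h radicle than in the 3 h cotyledons, although neither passed between the dry ends. Whether the dry and the 3 h differences of a locus differ from each other was not tested.

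The endosperm parts were compared in the same way. At 3 h, 778 loci (5.6%) differed between micropylar and remaining endosperm, 276 higher in the micropylar part (1.99%) and 502 in the remaining part (3.61%). Of the loci higher in the dry radicle end 52 (9.24%) were higher in the micropylar endosperm and 9 in the remaining endosperm, and of those higher in the dry cotyledon end 64 (8.24%) were higher in the remaining endosperm and 2 in the micropylar part. The Pearson r across loci was 0.266. FAD2 was among the loci that differed between the endosperm parts, with 8.28 ± 0.24 (SD, n = 4) in the micropylar and 6.38 ± 0.18 in the remaining endosperm (adjusted p = 5.65e-12). ARF6 was at 6.60 ± 0.40 and 5.35 ± 0.47 in these tissues (adjusted p = 0.00971), so both genes were higher on the radicle side in embryo and endosperm alike.

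Within each end, the isolated tissues show where such loci were measured after imbibition. At 1 h, 1721 loci (12.4%) differed between radicle and micropylar endosperm, 878 higher in the radicle (6.32%) and 843 in the endosperm (6.07%). The larger count was on the endosperm side under 10 of 14 alternatives, among them quantile normalization (828 against 897). Of the 563 loci higher in the dry radicle end, 91 (16.2%) were higher in the radicle and 30 (5.33%) in the micropylar endosperm. At 3 h, 3747 loci (27%) differed between the remaining endosperm and the cotyledons, 1824 higher in the endosperm (13.1%) and 1923 in the cotyledons (13.8%). Of the 777 loci higher in the dry cotyledon end, 321 (41.3%) were higher in the cotyledons and 41 (5.28%) in the endosperm. The dry ends were not separated into tissues, so the tissue that held a transcript in the dry seed was not measured.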

How the data were processed

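The deposited table holds 1 log2 expression value per locus code and array, which the authors computed by RMA with affy, as given in the submitters' processing notes (versions are not given in the sources used here). RMA sets all arrays to one distribution, so differences are relative within an array. Values ran from 2.54 to 13.0 and the array medians from 4.04 to 4.17. Groups came from the labels. limma 3.58.1 in R 4.3.3 was fitted with 1 mean per group to 107 arrays in 27 groups (80 residual and 6.04 prior degrees of freedom), and p-values were adjusted over all 13895 probe sets. The number of arrays limits the precision. The procedure was tested on simulated data.

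The lists were written from general knowledge of Arabidopsis. The members and lists were chosen with earlier results of these data known. Named loci were, by rule, the 15 listed loci with the largest non-overlapping differences in each direction, up to 4 passing members per list, a panel of 17 loci of which 13 were measured, and 4 loci outside the lists, 81 in all. For the largest listed loci and those outside the lists, non-overlap was a condition of the choice, so there it is a description and no added support. Passing members beyond these (such as RCA, FATB and KNAT6) were named after their values were seen. The main fit held no pairing by replicate number. Deviations of same-numbered dry arrays from their group means correlated at -0.078 to 0.048 and of others at -0.098 to 0.164. These values cannot exclude a seed batch shared by same-numbered arrays. Alternatives were another estimate of the spread, array weights, quantile normalization, another centring, a filter on dim probe sets, a replicate block, a fold floor and leaving out each array.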

Additional observations from a re-analysis of the deposited data

Results flagged for a closer look

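In 4 of 162 groups of 4 arrays tested, 1 array lay far from the other 3, where chance alone gives about 1 in 20. Whole-seed replicate 2 was high for EM6, at 7.15 against 6.35 to 6.47. Radicle-end replicate 1 was high for HSP26.5, at 5.16 against 3.70 to 3.87. Whole-seed replicate 3 was high for ICL, at 9.24 against 8.71 to 8.73. Radicle-end replicate 4 was high for EPR1, at 7.10 against 6.63 to 6.68.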

How the results depend on the processing

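Between the ends, 1340 became 657 on the 11 dry arrays, 623 on the 7 arrays of the ends, 715 with array weights on the 11 arrays and 527 with the replicate number as a block on them. For the radicle end against whole seeds, 895 became 383 on the 11 arrays, 310 with the replicate block and 556 with a 1.5-fold floor, which was added after seeing the data. For the cotyledon end against whole seeds, 121 became 1 on the 11 arrays and 0 with the replicate block, where 1065 had an unadjusted p under 0.05 in limma. Radicle against cotyledons at 3 h became 211 with the replicate block on its 8 arrays, which changed the block and the arrays behind the spread together, of which 29.9% were higher in the radicle, against 44.0% of the 1790. Radicle against micropylar endosperm at 1 h became 477 with the block (160 higher in the radicle and 317 in the endosperm) and 998 with the fold floor (405 and 593), where 878 against 843 were reported. Leaving out 1 array gave 1027 to 1253 loci between the ends, 721 to 920 and 84 to 153 for the radicle and cotyledon end against whole seeds, 1382 to 1720, 519 to 763 and 3152 to 3846 for the 3 h comparisons in the order reported, and 1201 to 1990 at 1 h. The direction with more calls turned under 10 of 14 alternatives at 1 h, under 1 for the remaining endosperm against cotyledons (1856 and 1837 with the other centring) and under 4 for the cotyledon end against whole seeds (59 and 62 became 90 and 63 without cotyledon-end replicate 3). It did not turn between the ends. Of the 71 named loci that passed none changed direction, 33 passed under all 16 alternatives, 12 of them higher in the radicle end, and 27 did not pass on the 11 arrays. With the block the counts towards the cotyledon end became 5 for photosynthesis (10) and 1 for storage and oil body genes (3), and aquaporins gave 2 on the 7 arrays. Same-numbered dry arrays were no more alike than others, and the imbibed arrays were not checked for pairing. The cause of these changes beyond the number of arrays was not tested.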

Other observations

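A further 3 gene groups were listed after the values were seen, so their counts are a description without a test. Plastid ribosomal proteins build the translation machinery of the chloroplast. Of 37 measured, 32 were higher in the dry cotyledon end and none in the radicle end, against 5.59% and 4.05% of all loci. The median difference of the 37 was -1.08. The arrays of the ends did not overlap for 29 of them, while 8.26% of all loci had every cotyledon-end array above every radicle-end array. PRPS17 (AT1G79850), a small-subunit protein, was at 5.06, 4.30, 4.74 and 3.64 in the radicle end and at 7.28, 6.81 and 7.33 in the cotyledon end. Over all alternatives the count was 25 to 32. At 3 h, 30 of the 37 were higher in the cotyledons than in the radicle, against 7.22% of all loci.

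In the other groups the loci that passed were higher in the radicle end, where 4.05% of all loci were higher. Of 16 measured tubulins and actins, the subunits of the cytoskeleton, 6 were higher in the radicle end and none in the cotyledon end (median 0.18, with 4 of the 16 below 0), led by ACT2 (1.86), TUA4 (1.83) and TUA2 (1.66). Of 14 measured glycolytic enzymes 6 were higher in the radicle end and none in the cotyledon end (median 0.24, with 3 of the 14 below 0), led by TPI (AT3G55440), triosephosphate isomerase, at 7.93, 8.12, 8.26 and 8.12 against 6.08, 5.70 and 5.93. ENO1, an enolase, followed at 1.75. With the replicate block the count for glycolysis was 3.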
